A study of Mus musculus with 12 samples.

Results

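Single-cell RNA sequencing of the stromal vascular fraction (SVF) of inguinal white adipose tissue (iWAT) was used to compare leptin-deficient obese mice with lean mice, both given vehicle. The obese group, ob/ob-Veh, held 2 male Lepob/Lepob mice, homozygous for a stop codon in the gene of the satiety hormone leptin. The lean group, WT-Veh, held 2 male C57BL/6J mice. All 4 mice were 12 weeks old and received methylcellulose vehicle by gavage in the morning and evening for 3 days. Another group, ob/ob-Rosi, held 2 Lepob/Lepob mice given the PPARγ agonist rosiglitazone at 30 mg/kg on the same schedule, and its iWAT libraries were clustered and fitted together with the others but are not compared here. One library was made from each mouse with 10x Genomics 3′ chemistry, after collagenase digestion of small pieces taken from several places of the depot and removal of floating adipocytes and red blood cells. The leptin deficiency is present in every tissue and from birth, so obesity, its metabolic consequences and loss of leptin itself cannot be told apart in this comparison. Barcodes with 700 to 22000 UMIs, 200 to 6000 genes and less than 25% of UMIs from mitochondrial genes were kept, which left 41308 cells in these 4 libraries, of 126095 in the 12 libraries of the series.

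iWAT is the main subcutaneous fat depot of the mouse. Its SVF holds the fibroblast-like adipocyte progenitors from which new fat cells arise, together with endothelial cells, resident macrophages and lymphocytes. Among the progenitors, cells bearing Pi16 and Dpp4 lie in the connective tissue that surrounds the fat lobules and are known to give rise to committed preadipocytes bearing Icam1 and Cd36, in which the nuclear receptor PPARγ turns on the genes of lipid storage. In obese fat, lipid-associated macrophages (LAM) bearing Trem2 take up the lipid of dying adipocytes, while perivascular macrophages (PVM) bearing Lyve1 line the vessels.

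The 2 WT-Veh libraries differed strongly from each other and are given singly throughout. WT-Veh replicate 1 held 17063 cells with a median of 1132 UMIs, and 73.0% of its cells had fewer than 1500 UMIs. WT-Veh replicate 2 held 9837 cells with a median of 4671 UMIs. The ob/ob-Veh libraries were alike, with 7205 and 7203 cells and medians of 1998 and 1919 UMIs. The median share of mitochondrial UMIs per cell was 5.89% and 3.32% in the WT-Veh libraries and higher, at 9.05% and 8.07%, in the ob/ob-Veh libraries. Between 3.83% and 4.29% of the kept cells of a library had a barcode that also occurred in another library of the series, and WT-Veh replicate 2 shared 338 barcodes with an epididymal library labelled ob/ob-Rosi. Lep itself (chromosome 6, 29060220 to 29073877; all positions are in GRCm38) gave 48, 83, 4 and 8 UMIs in WT-Veh replicates 1 and 2 and ob/ob-Veh replicates 1 and 2, the order used for every set of 4 values here. These counts were lower in both ob/ob-Veh libraries, but the Lepob allele is a point change that 3′ counts do not read, and the adipocyte hormone gene Adipoq was also lower there, with 239, 263, 11 and 53 UMIs. Lep counts therefore did not check the labels, and the groups are called by their labels. The X-inactivation transcript Xist was at 0.12 to 0.459 CPM (UMIs per 1000000 UMIs) in the 4 libraries, all labelled male.

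Cells were clustered and the clusters named from marker genes, with "-like" marking a name that rests on such markers alone. Of the cells of WT-Veh replicate 1, 48.1% (8206 cells, median 984 UMIs) fell into clusters without enough markers for a name, compared with 0.102% in WT-Veh replicate 2 and 1.68% and 0.986% in the ob/ob-Veh libraries. The largest unnamed cluster was led by AY036118, Lars2 and Gm42418 and held 7387 cells of WT-Veh replicate 1. Progenitor-like cells, named from Pi16, Dpp4, Sema3c and other markers, made up 0.774% and 20.2% of the kept cells of the WT-Veh libraries and 38.5% and 35.9% of the ob/ob-Veh libraries. Both ob/ob-Veh values lay above both WT-Veh values, but WT-Veh replicate 1 held only 132 of these cells. The preadipocyte-like share was 0.973% and 9.99% in WT-Veh and 7.41% and 14.7% in ob/ob-Veh, so the groups overlapped. As a share of all stromal cells, preadipocyte-like cells were 55.7% and 33.1% in WT-Veh and lower, at 16.1% and 29.0%, in both ob/ob-Veh libraries. The first of these values rests on 298 stromal cells. The order was lost when cells were assigned to classes singly. There WT-Veh replicate 2 held 1287 preadipocyte-like and 2014 progenitor-like cells, and ob/ob-Veh replicate 2 held 1990 and 2936.

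LAM-like cells were few in the ob/ob-Veh libraries. They made up 1.52% and 4.31% of the cells of the WT-Veh libraries, compared with 0.472% (34 cells, 95% exact binomial interval 0.327 to 0.659%) and 0.18% (13 cells, 0.0961 to 0.308%) in ob/ob-Veh. Among the macrophage-like cells alone their share was 18.8% and 10.7% in WT-Veh and 0.992% and 0.519% in ob/ob-Veh. The study also found few LAM in ob/ob-Veh by sequencing and hypothesized that they float with the adipocytes, a layer removed before sequencing. It imaged numerous macrophages in that layer from ob/ob-Veh iWAT, so these shares may not give their number in the tissue. PVM-like cells were 5.22% and 29.1% of the WT-Veh cells and 36.9% and 28.6% of the ob/ob-Veh cells, and these ranges overlapped. NPVM-like cells, macrophages named from Ear2, Ccr2 and other markers of non-perivascular macrophages and monocytes, were 0.867% and 5.71% in WT-Veh and 9.7% and 5.8% in ob/ob-Veh. That order turned with cells assigned to classes singly, at 0.756% and 2.68% in WT-Veh and 0.416% and 0.25% in ob/ob-Veh.

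Lymphocytes were also fewer in the libraries labelled ob/ob-Veh. The T, NK and innate lymphoid cells, named NKT-like after the study's label, made up 17.3% and 14.5% of the WT-Veh cells and 2.05% and 3.23% of the ob/ob-Veh cells. The WT-Veh values cover mostly different cells. A cluster led by Satb1, Vps37b and Txk held 2764 and 64 cells of the WT-Veh libraries and 68 and 154 of the ob/ob-Veh libraries. WT-Veh replicate 2 had 534 cells in a cluster led by Ccl5, Nkg7 and Trbc2 and 390 in one led by Ccl5, Gzma and Nkg7. With cells assigned to classes singly, NKT-like cells numbered 1378 and 1089 in WT-Veh and 0 and 3 in ob/ob-Veh. Nearly all ob/ob-Veh cells of this class thus lost the name, and whether they are lymphocytes was not tested. BC-like (B) cells made up 10.9% and 1.14% of the WT-Veh cells and 0.264% and 0.736% of the ob/ob-Veh cells. EC-like (endothelial) cells made up 13.2% and 12.0% in WT-Veh and 1.53% and 8.89% in ob/ob-Veh. In these 3 classes both ob/ob-Veh libraries lay below both WT-Veh libraries, but for EC-like cells this depended on the clustering. At the lower resolution of 0.5 their share was 1.87% and 11.8% in WT-Veh and 1.53% and 8.83% in ob/ob-Veh, with overlapping groups, and the log2 change was -0.40 in place of -1.28. A lymph node lies within this depot. The summed level of 12 lymph node genes was 590.6 and 186.6 CPM in WT-Veh and 272.3 and 502.5 CPM in ob/ob-Veh, with overlapping groups. Most of the 11 tested genes of this list fell, with a median change of -3.42 in the sums over all kept cells, beside -0.015 for all genes. Of the 11, 3 were above 0 and 1 was called lower. The part of lymph node cells in the lymphocyte shares was not tested.

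With the mouse as the unit, no class differed in number past the threshold of edgeR's quasi-likelihood test (Benjamini-Hochberg over 12 classes). The lowest adjusted p was 0.115, for BC-like cells (log2 change -3.59 ± 1.27, SE) and LAM-like cells (-3.15 ± 1.12), followed by NKT-like cells (-2.58 ± 1.07, adjusted p = 0.152). The progenitor-like change was 1.83 ± 1.53 (adjusted p = 0.426). The total here included the unnamed cells of WT-Veh replicate 1. With the named cells alone as the total, BC-like (-4.45, adjusted p = 0.00259), LAM-like (-3.45, 0.0111), neutrophil-like (-2.31, 0.0115) and NKT-like cells (-3.16, 0.0289) passed the same test, and without WT-Veh replicate 1 LAM-like (-3.72, 0.00305) and NKT-like cells (-2.45, 0.0266) passed. Without WT-Veh replicate 2, progenitor-like (5.59, adjusted p = 0.00129), preadipocyte-like (3.50, 0.0119), PVM-like (2.65, 0.0136), NPVM-like (3.16, 0.0166), NKT-like (-2.71, 0.0136) and BC-like cells (-4.45, 0.00169) passed. Intervals of shares cover counting error only, and p-values measure the spread among 2 mice per group, for which an exact permutation test of a single value could not go below 0.33. Differences in cells recovered by digestion and in the tissue itself cannot be told apart here.

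**Figure D1:**
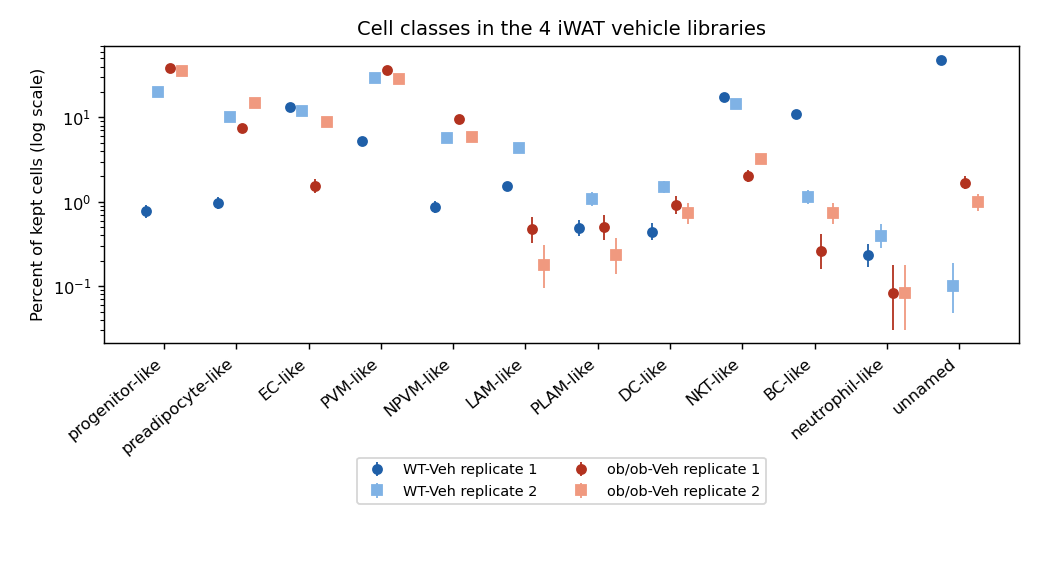
Share of kept cells in each class, in percent on a log axis, with 1 point per library and bars giving the 95% exact binomial interval (counting error only). LAM-like, NKT-like, BC-like and EC-like cells were lower in both ob/ob-Veh libraries (red) than in both WT-Veh libraries (blue), an order that EC-like cells lost at a clustering resolution of 0.5. With these cluster names WT-Veh replicate 1 stood far below the other libraries in stromal and PVM-like cells. With cells assigned singly its preadipocyte-like share was 35.8%, above 13.1% in WT-Veh replicate 2 and 22.6% and 27.6% in ob/ob-Veh. Its PVM-like share was then 20.8%, beside 31.7%, 29.5% and 23.55%, and its progenitor-like share was 1.19%.

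UMIs were then summed per library within each class, and genes were compared with edgeR's quasi-likelihood test across all iWAT libraries. A gene was called where the p adjusted by Benjamini-Hochberg did not exceed 0.05 and the group levels differed 1.1-fold or more. Every adjusted p of a gene below is from this test, each change is on the log2 scale as ob/ob-Veh minus WT-Veh with its SE, and levels are CPM within the class. A count of genes is given beside the percentage it makes of all genes tested. With cells of shared barcodes removed, an alternative chosen after seeing the data, 135 genes were called in progenitor-like cells in place of 132, 64 in preadipocyte-like cells in place of 27, 151 in EC-like cells in place of 117, and 628 in PVM-like cells in place of 679.

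In progenitor-like cells the decoy receptor for interleukin-1, 5 complement genes and 2 interferon-stimulated genes were higher in ob/ob-Veh, and the lipid-binding protein gene Fabp5, eosinophil chemokine Ccl11 and the matrix protein gene Thbs1 were lower. Of 12825 genes tested, 70 were called higher (0.546%) and 62 lower (0.483%). The median change over all genes was 0.02. The cells compared did not come from the same clusters. Those of WT-Veh replicate 2 were mostly in clusters led by Sbsn, Dmkn and Krtdap (1514 cells) and by Mrgprg and Igfbp3 (452 cells), and those of the ob/ob-Veh libraries were mostly in one led by Il1r2, Adgrd1 and Fn1 (2004 and 2018 cells) and one led by Ptgs2, Tnfaip6 and Has1 (745 and 510 cells). Without ob/ob-Veh replicate 1 no gene was called, and without ob/ob-Veh replicate 2 the number was 7. It was higher without WT-Veh replicate 1 or 1 of the ob/ob-Rosi libraries, and lower without WT-Veh replicate 2. The ob/ob-Rosi libraries entered the fit for the estimate of spread, and also the filter on low counts and the TMM normalization.

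Il1r2 (chromosome 1, 40074079 to 40125231) encodes a receptor that binds interleukin-1 without passing on a signal. Its level was 43.3 and 53.9 CPM in the WT-Veh libraries and 699.8 and 710.2 CPM in the ob/ob-Veh libraries. The groups lay far apart, with a mean in ob/ob-Veh of 16.3 and 13.1 times WT-Veh replicates 1 and 2 (change 3.71 ± 0.37, adjusted p = 0.00763). Tdo2 (chromosome 3, 81957090 to 81976202), which encodes the tryptophan-degrading enzyme tryptophan 2,3-dioxygenase, was at 1.40 and 0.485 CPM in WT-Veh and 29.0 and 37.4 CPM in ob/ob-Veh (change 5.69 ± 0.55, adjusted p = 0.00763). Dkk2 (chromosome 3, 132085292 to 132180304), a secreted modulator of Wnt signalling, was at 4.19 and 6.69 CPM in WT-Veh and 39.4 and 44.0 CPM in ob/ob-Veh (change 2.60 ± 0.34, adjusted p = 0.0153).

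Complement genes were called higher in 5 of the 21 tested and lower in 0, with a median change of 0.91. None was called once WT-Veh replicate 2 or 1 of the ob/ob-Veh libraries had been left out, and 9 were called higher and 1 lower without WT-Veh replicate 1. C7 (chromosome 15, 4988762 to 5063740), part of the membrane attack complex, was at 1.40 and 2.81 CPM in WT-Veh and 104 and 124 CPM in ob/ob-Veh (change 5.27 ± 0.83, adjusted p = 0.0329). C2 (chromosome 17, 34862604 to 34898265), a protease of the classical pathway, was at 8.38 and 9.40 CPM in WT-Veh and 74.3 and 69.8 CPM in ob/ob-Veh (change 2.84 ± 0.51, adjusted p = 0.042). C6, another component of the attack complex, and properdin (Cfp), which stabilises the alternative pathway convertase, were called higher with changes of 3.81 and 2.09. The summed level of the whole list was 9165 and 10290 CPM in WT-Veh and 11220 and 11720 CPM in ob/ob-Veh. Fcrls, a gene of macrophages and microglia, was also among the 4 with the largest change in this class, at 0 and 1.26 CPM in WT-Veh and 26.5 and 21.3 CPM in ob/ob-Veh (adjusted p = 0.0113). The summed level of 10 PVM markers in the progenitor-like cells was 618.5 and 186.4 CPM in WT-Veh and 934.3 and 938.0 CPM in ob/ob-Veh, and the part of macrophage RNA in this and other changes was not tested.

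Fabp5 (chromosome 3, 10012548 to 10016607), which encodes a fatty acid carrier, was lower in progenitor-like cells of the ob/ob-Veh mice. Its level was 177 and 72.1 CPM in WT-Veh and 4.94 and 7.52 CPM in ob/ob-Veh, a change of -4.37 ± 0.47 (adjusted p = 0.00859). Fabp5 is also a marker from which LAM-like cells were named, and its level was higher in EC-like cells, as given below. The part of macrophage or endothelial RNA in this fall was not tested. Ccl11 (chromosome 11, 82057823 to 82062955), the chemokine eotaxin, fell from 952 and 876 CPM in WT-Veh to 199.8 and 323 CPM in ob/ob-Veh (change -1.92 ± 0.35, adjusted p = 0.0433). In 3 further genes with the largest falls the WT-Veh libraries themselves differed several-fold. Thbs1 (thrombospondin 1) was at 127 and 13.5 CPM in WT-Veh and 2.04 and 1.60 CPM in ob/ob-Veh (adjusted p = 0.0481). Gsta3, a glutathione transferase, was at 9.77 and 85.7 CPM and 1.25 and 2.51 CPM (adjusted p = 0.0314). Cntn2, a cell adhesion gene, was at 60.0 and 10.1 CPM in WT-Veh and had 3 UMIs in both ob/ob-Veh libraries together, which gives a WT-Veh to ob/ob-Veh ratio of 106 (95% counting interval 35.7 to 522). The levels of Pi16 and Dpp4 are in part set by their use in naming the class. Pi16 was at 2996 and 4305 CPM in WT-Veh and 3446 and 3658 CPM in ob/ob-Veh (change -0.16 ± 0.36), and Dpp4 at 885 and 523 and 589.7 and 776 CPM (change -0.13 ± 0.35), with overlapping groups in both.

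In preadipocyte-like cells the adipocyte genes Plin1 and Adipoq and the lipid-binding protein gene Fabp5 were lower in ob/ob-Veh. Il1r2, Pi16 and 2 genes that modulate Wnt signalling, Dkk2 and Sfrp4, were higher there. Of 11754 genes tested, 10 were called higher (0.0851%) and 17 lower (0.145%), and the median change over all genes was -0.03. No gene was called when either ob/ob-Veh library was left out or when cells were assigned to classes singly, 15 of the 27 were called with likely doublets removed, 991 were called without WT-Veh replicate 1, 37 without WT-Veh replicate 2, and 102 and 107 without 1 of the ob/ob-Rosi libraries. Of the WT-Veh replicate 2 cells, 588 were in a cluster led by Cxcl14, Smoc2 and Lum, while 439 and 895 cells of the ob/ob-Veh libraries were in one led by Col5a3, Col6a3 and Col3a1. Among 33 tested genes of PPARγ and adipogenesis, 3 were called lower and 0 higher, with a median change of -0.96, and 4 had a change above 0. Their summed level was 15980 and 32700 CPM in WT-Veh and 6152 and 7172 CPM in ob/ob-Veh. The list includes Fabp4 and Cd36, given below, which are also among the markers from which the class was named.

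The 3 called members were Fabp5, Plin1 and Adipoq. Fabp5 was at 226 and 300.5 CPM in WT-Veh and 12.2 and 17.0 CPM in ob/ob-Veh, a change of -4.20 ± 0.34 (adjusted p = 0.00352). As in progenitor-like cells, the part of macrophage or endothelial RNA in its fall was not tested. Plin1 (chromosome 7, 79720218 to 79732903), the coat protein of the adipocyte lipid droplet, was at 22.1 and 16.2 CPM in WT-Veh and had 3 UMIs in ob/ob-Veh, a WT-Veh to ob/ob-Veh ratio of 32.3 (95% counting interval 10.7 to 159). Adipoq (chromosome 16, 23146536 to 23158028) was at 7.35 and 29.6 CPM in WT-Veh and at 0 in both ob/ob-Veh libraries, and was at least 17.0-fold lower there when 3 UMIs per library were taken as the floor. Both are genes of mature adipocytes, and the list of 14 adipocyte genes, which includes them, summed to 451 and 604.5 CPM in WT-Veh and 153 and 202.6 CPM in the ob/ob-Veh preadipocyte-like cells, so the level of adipocyte RNA moved with these values, and its part was not tested. Fabp4, which encodes the fatty acid carrier of adipocytes, was at 6257 and 21880 CPM in WT-Veh and 376 and 1099 CPM in ob/ob-Veh (adjusted p = 0.0506), and the fatty acid transporter gene Cd36 at 717 and 748 and 154 and 248 CPM (adjusted p = 0.091). Neither passed the threshold, although both ob/ob-Veh libraries lay below both WT-Veh libraries. Fabp4, Cd36 and Icam1 are among the markers from which preadipocyte-like cells were named, so their levels are in part set by that use. Icam1 overlapped between the groups, at 148 and 121 and 102 and 158 CPM (change -0.07 ± 0.37, adjusted p = 0.934).

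The largest falls in this class were in Arxes1, an adipocyte-enriched gene that lies beside a near-identical copy and may have shared reads with it, Reep6, a gene of endoplasmic reticulum membranes, and Cd300lg, a surface receptor of capillaries. Reep6 (chromosome 10, 80329953 to 80336441) was at 23.3 and 91.9 CPM in WT-Veh and 0.419 and 1.82 CPM in ob/ob-Veh (change -5.68 ± 0.77, adjusted p = 0.0307). Cd300lg was at 74.8 and 192 CPM and 3.35 and 10.9 CPM (adjusted p = 0.0341), and Arxes1 had 246 UMIs in WT-Veh and 3 in ob/ob-Veh, a ratio of 82.0 (27.7 to 400.2). In each the ob/ob-Veh libraries lay below both WT-Veh libraries.

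Among the genes higher in preadipocyte-like cells, the progenitor marker Pi16 (chromosome 17, 29317680 to 29330593) was at 47.8 and 98.2 CPM in WT-Veh and 490.4 and 427 CPM in ob/ob-Veh (change 2.58 ± 0.38, adjusted p = 0.0366). Its level in the progenitor-like cells of the same libraries was between 2996 and 4305 CPM, and the part of RNA from those cells was not tested. Sfrp4 (chromosome 13, 19623104 to 19632994), a secreted inhibitor of Wnt ligands, was at 63.7 and 38.0 and 259.8 and 244 CPM (change 2.34 ± 0.32, adjusted p = 0.0307). Dkk2 was at 12.3 and 17.3 and 76.7 and 120.3 CPM (change 2.62 ± 0.34, adjusted p = 0.0307). Il1r2 rose from 24.5 and 17.7 CPM in WT-Veh to 306 and 223 CPM in ob/ob-Veh (change 3.69 ± 0.39, adjusted p = 0.0172). Slc16a9, a carrier of the monocarboxylate family, was at 8.58 and 22.0 and 89.3 and 108 CPM (adjusted p = 0.0403). Tdo2 had 3 UMIs in WT-Veh and 340 in ob/ob-Veh, a ratio of 113 (38.5 to 552.5), and the beige fat marker Tmem26 had 3 and 189, a ratio of 63.0 (21.2 to 308).

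**Figure D2:**
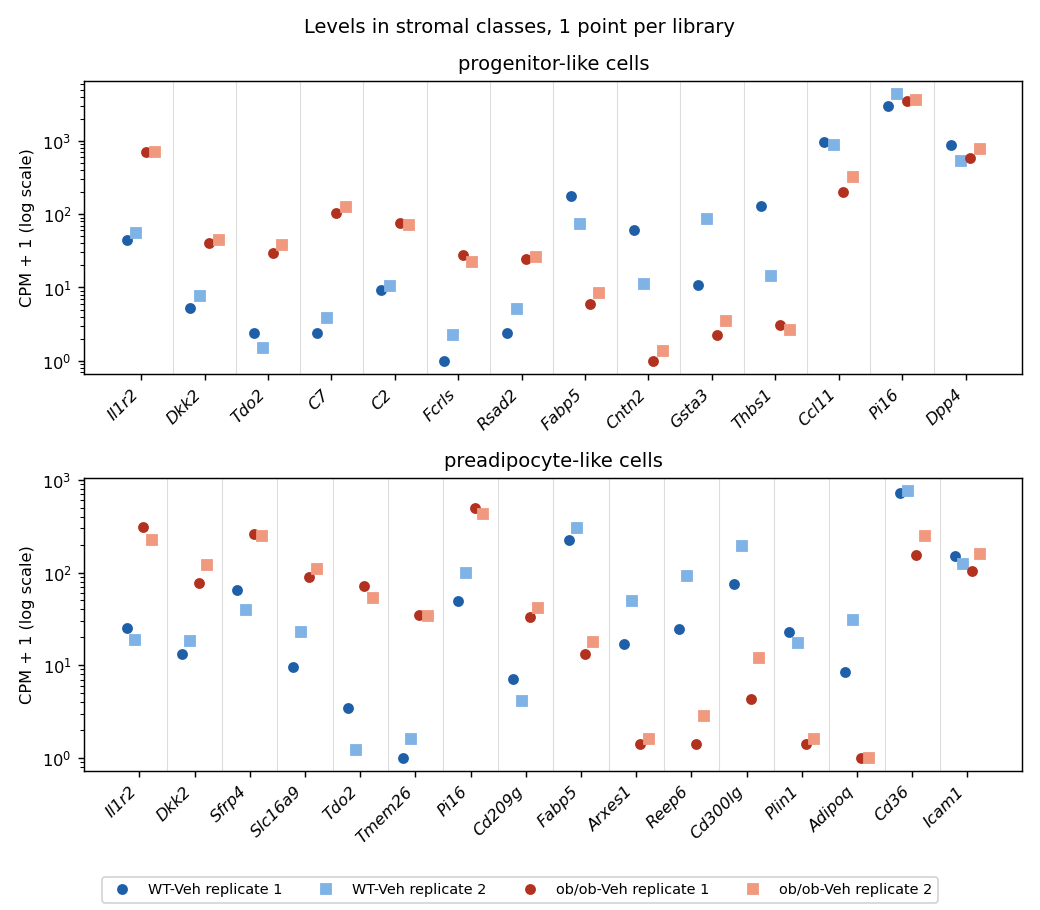
CPM + 1 on a log axis for named genes of progenitor-like (top) and preadipocyte-like cells (bottom), with 1 point per library. Il1r2, Dkk2 and Tdo2 were higher in both ob/ob-Veh libraries in both classes and Fabp5 was lower, while Pi16 overlapped between the groups in progenitor-like cells and was higher in the ob/ob-Veh preadipocyte-like cells.

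In EC-like cells the detoxification enzyme gene Cyp1a1, the gluconeogenic enzyme gene Pck1, 4 of 27 interferon-stimulated genes and 3 of 21 complement genes were higher in ob/ob-Veh, and the lipid genes Fabp5, Angptl4 and Plin2, the tight junction gene Cldn5 and the macrophage genes Trem2 and Gpnmb were lower. Of 12574 genes tested, 80 were called higher (0.636%) and 37 lower (0.294%), with a median of -0.10 over all genes. ob/ob-Veh replicate 1 held only 110 EC-like cells. WT-Veh replicate 1 held 2254, but 319 at a clustering resolution of 0.5, at which genes were not fitted. Most ob/ob-Veh cells were in a cluster led by Ctla2a, Aqp1 and Cdh5 (106 and 610 cells), while those of WT-Veh replicate 1 were in one led by Rbp7, Btnl9 and AY036118 (2004 cells) and those of WT-Veh replicate 2 in one led by Rbp7, Mgll and Tinagl1 (858 cells). Without ob/ob-Veh replicate 1 the only gene called was Cyp1a1 and without ob/ob-Veh replicate 2 there was none, without WT-Veh replicate 1 or 2 it was 1503 and 774, and with cells thinned to 700 UMIs or likely doublets removed it was 10 and 13.

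Cyp1a1 (chromosome 9, 57687928 to 57703824), a cytochrome P450 that is induced through the aryl hydrocarbon receptor, showed the largest rise in these cells. It had 1 and 6 UMIs in the WT-Veh libraries, or 0.213 and 0.804 CPM, and 41 and 207 UMIs in the ob/ob-Veh libraries, or 131 and 117 CPM. The groups were separated by a change of 7.45 ± 0.49 (adjusted p = 0.000378). Pck1 (chromosome 2, 173153048 to 173159273), the gluconeogenic and glyceroneogenic enzyme PEPCK, was at 0.638 and 0.536 CPM in WT-Veh and 51.3 and 40.8 CPM in ob/ob-Veh (change 5.96 ± 0.61, adjusted p = 0.00764). Scn4b, a sodium channel subunit, had 2 UMIs in WT-Veh and 43 in ob/ob-Veh, a ratio of 126 (32.8 to 1073). Esm1 (chromosome 13, 113209659 to 113218098), a secreted product of sprouting endothelial tip cells, was at 1.70 and 2.01 CPM in WT-Veh and 16.0 and 44.8 CPM in ob/ob-Veh (change 3.89 ± 0.57, adjusted p = 0.0253).

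In EC-like cells 4 of 27 tested interferon-stimulated genes were called higher and 0 lower, with a median of 0.54 and 25 of the 27 above 0. The antiviral enzyme gene Rsad2 (chromosome 12, 26442746 to 26456452) was at 41.1 and 74.4 CPM in WT-Veh and 404 and 291 CPM in ob/ob-Veh (change 2.29 ± 0.39, adjusted p = 0.0323). Ifi44, Ifit1 and Ifit2 were the other 3, with changes of 3.57, 2.04 and 1.87. Among complement genes, 3 of 21 were called higher. Cfd (chromosome 10, 79890853 to 79892655), the adipokine adipsin that starts the alternative pathway, was at 3.62 and 6.97 CPM in WT-Veh and 119 and 129.8 CPM in ob/ob-Veh (change 4.25 ± 0.38, adjusted p = 0.00341), and the changes of C3 and C1s1 were 2.41 and 1.56. The 8 stromal markers summed to 3554 and 2066 CPM in WT-Veh and 6128 and 5279 CPM in ob/ob-Veh EC-like cells. Of the 80 genes called higher, 28 (35.0%) were at least 2-fold higher in the progenitor-like cells of both ob/ob-Veh libraries than in their EC-like cells, compared with 9.77% of all genes tested, and the part of stromal RNA was not tested.

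Of 35 genes of PPARγ and adipogenesis, 3 were called lower in EC-like cells and 1, Pck1, higher, with a median of -0.21. Fabp5 was at 2248 and 4119 CPM in WT-Veh and 436 and 376 CPM in ob/ob-Veh (change -3.26 ± 0.52, adjusted p = 0.0323). Angptl4 (chromosome 17, 33773750 to 33781830), a PPAR target that inhibits lipoprotein lipase, was at 1195 and 2213 and 352 and 289 CPM (change -2.70 ± 0.48, adjusted p = 0.0365). Plin2, a lipid droplet protein, was at 827 and 1416 and 272 and 301 CPM (adjusted p = 0.0333). Both ob/ob-Veh libraries were below both WT-Veh libraries in each. Of 27 genes of endothelial lipid uptake and vessels, 1 was called higher and 1 lower, with a median of 0.07. The fatty acid transporter Cd36, one of the most abundant genes of these cells, was at 9471 and 7589 CPM in WT-Veh and 7782 and 10030 CPM in ob/ob-Veh and overlapped (change -0.21 ± 0.53, adjusted p = 0.86). Cldn5 (chromosome 16, 18776847 to 18778262), the claudin of endothelial tight junctions, was at 1845 and 2441 CPM in WT-Veh and 391 and 494 CPM in ob/ob-Veh (change -2.55 ± 0.46, adjusted p = 0.0394), although the 8 EC markers together, of which it is one, summed to 6847 and 8372 CPM in WT-Veh and 10150 and 9534 CPM in ob/ob-Veh.

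Of 35 lysosome and lipid handling genes, 9 were called lower and 0 higher in EC-like cells, with a median of -0.77. Of the 9, Trem2, Gpnmb and Fabp5 are among the markers from which LAM-like cells were named. Trem2 (chromosome 17, 48346401 to 48354147), the lipid receptor that defines these macrophages, was at 119 and 72.5 CPM in WT-Veh and 3.21 and 9.07 CPM in ob/ob-Veh (change -3.88 ± 0.51, adjusted p = 0.0143). The galectin gene Lgals3 was at 719 and 415 and 48.1 and 57.8 CPM (change -3.66 ± 0.43, adjusted p = 0.0143). Gpnmb, a lysosomal glycoprotein gene, was at 330.3 and 56.0 and 6.41 and 10.2 CPM (adjusted p = 0.0463). LAM-like cells were more frequent in the WT-Veh libraries, as given above, and the part of their RNA in the EC-like sums was not tested.

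PVM-like cells gave the most calls of the 6 classes, with 27 of 42 matrix genes and 9 of 28 interferon-stimulated genes higher in ob/ob-Veh and 30 of 82 ribosomal protein, 14 of 77 respiratory chain and 7 of 35 lysosome and lipid handling genes lower. Of 12167 genes, 438 were called higher (3.6%) and 241 lower (1.98%), with a median of 0.01 over all genes. The PVM-like cells of WT-Veh replicate 1 were in a cluster led by Ccl8, Mrc1 and Wfdc17 (859 cells), those of WT-Veh replicate 2 in one led by Fcna, Fxyd2 and Folr2 (2770 cells), and those of the ob/ob-Veh libraries in one led by Cd209f, Mmp9 and Cd209g (2643 and 2008 cells). The 10 leading genes of the ob/ob-Veh cluster held 2 PVM markers (Mrc1 and Cd163) and 3 markers of other classes (Mmp9, Clec10a and Fcrls, each from a different class), compared with 4 and 0 in both WT-Veh clusters, and whether these are the same kind of macrophage was not tested. Leaving out ob/ob-Veh replicate 1 or 2 gave 63 and 92 calls, and leaving out WT-Veh replicate 1 or 2 gave 1956 and 414. The 10 PVM markers summed to 16190 and 14780 CPM in WT-Veh and 13770 and 15470 CPM in ob/ob-Veh, and overlapped.

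Of 28 tested interferon-stimulated genes, 9 were called higher and 0 lower in PVM-like cells, with a median of 1.07. Among them were Rsad2, Ifi44, Oasl2, Ifit2, Stat2, Mx1, Xaf1 and Ddx58. Rsad2 was at 11.2 and 24.2 CPM in WT-Veh and 242 and 136 CPM in ob/ob-Veh (change 3.21 ± 0.47, adjusted p = 0.0109). Oasl2, an antiviral 2′-5′ oligoadenylate synthetase-like gene, was at 18.8 and 31.8 and 187 and 144 CPM (change 2.51 ± 0.34, adjusted p = 0.00727). Ifi44 was at 0.881 and 0.222 and 37.6 and 21.9 CPM (change 6.06 ± 0.61, adjusted p = 0.00238). The transcription factor gene Stat2, which carries the interferon signal to the nucleus, was at 38.5 and 30.2 CPM in WT-Veh and 119 and 103 CPM in ob/ob-Veh, and the groups did not overlap. The number called was 1 without ob/ob-Veh replicate 1 and 3 without ob/ob-Veh replicate 2. Not all members moved. Isg15, a ubiquitin-like protein gene, was at 18.5 and 34.4 CPM in WT-Veh and 48.8 and 30.8 CPM in ob/ob-Veh and overlapped (adjusted p = 0.552). In progenitor-like cells 2 of 28 genes of the list were called higher, among them Rsad2 (1.40 and 4.07 CPM in WT-Veh, 23.5 and 25.1 CPM in ob/ob-Veh, adjusted p = 0.0287). In preadipocyte-like cells 0 of 26 were called, with a median of 0.70, 9 at an unadjusted p below 0.05 and 3 called higher by DESeq2. The summed level of the list in preadipocyte-like cells was 2100 and 2378 CPM in WT-Veh and lower, at 1986 and 2027 CPM, in ob/ob-Veh. In progenitor-like cells the sums overlapped, at 1893 and 2705 CPM in WT-Veh and 2723 and 2673 CPM in ob/ob-Veh. The PVM-like sums were higher in ob/ob-Veh, at 2097 and 2789 CPM in WT-Veh and 3232 and 3212 CPM there.

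Interferon-stimulated genes are switched on through the interferon-stimulated response element, to which a complex with STAT2 and IRF9 binds. The core of that element, 2 blocks of GAAA separated by 2 bases of any kind, was searched on both strands of the 300 bases around each gene start (250 before, 50 after) in RefSeq, build GRCm38.p6. It was found in 1131 of 32851 promoters (3.44%) and in 13 of the 28 promoters of the list (46.4%), where 22 of its 29 genes had an entry and 13 genes a match. Of the 13 genes with a match, 4 were called in a class and 9, among them Isg15, in none. Of the 10 genes of the list called in any class, 8 had an entry and 4 a match. The windows of these 4 are given here, on the strand of the gene with the match in capitals, and each holds the element in its reverse orientation. Ifit1 held 2 overlapping windows with a match, of which 1 is given.
Rsad2, chr12:26456553-26456582: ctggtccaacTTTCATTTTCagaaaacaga
Ifit1, chr19:34640794-34640823: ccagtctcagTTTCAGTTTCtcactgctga
Stat2, chr10:128270266-128270295: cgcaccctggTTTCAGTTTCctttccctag
Ddx58, chr4:40239804-40239833: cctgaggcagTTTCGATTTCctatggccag

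Of 42 tested genes of fibrillar and basement membrane matrix, 27 were called higher and 0 lower, with a median of 2.08. Col1a1, the main fibrillar collagen gene, was at 36.7 and 23.5 CPM in WT-Veh and 664 and 259.5 CPM in ob/ob-Veh (change 3.82 ± 0.51, adjusted p = 0.00722). Pi16 was at 15.6 and 37.4 and 283 and 237 CPM, although it marks progenitors (adjusted p = 0.0174). The 8 stromal markers summed to 914.3 and 939.1 CPM in the WT-Veh PVM-like cells and 5915 and 5609 CPM in the ob/ob-Veh PVM-like cells. Of the 438 genes called higher, 310 (70.8%) were at least 2-fold higher in the progenitor-like cells of both ob/ob-Veh libraries than in their PVM-like cells, compared with 13.95% of all genes tested. Progenitor-like cells were also the largest class in those libraries, and the part of free stromal RNA or of doublets in these calls was not tested. With likely doublets removed, 673 genes were called, of which 651 were among the 679, and without ob/ob-Veh replicate 1 or 2 the matrix genes called were 8 and 11.

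**Figure D3:**
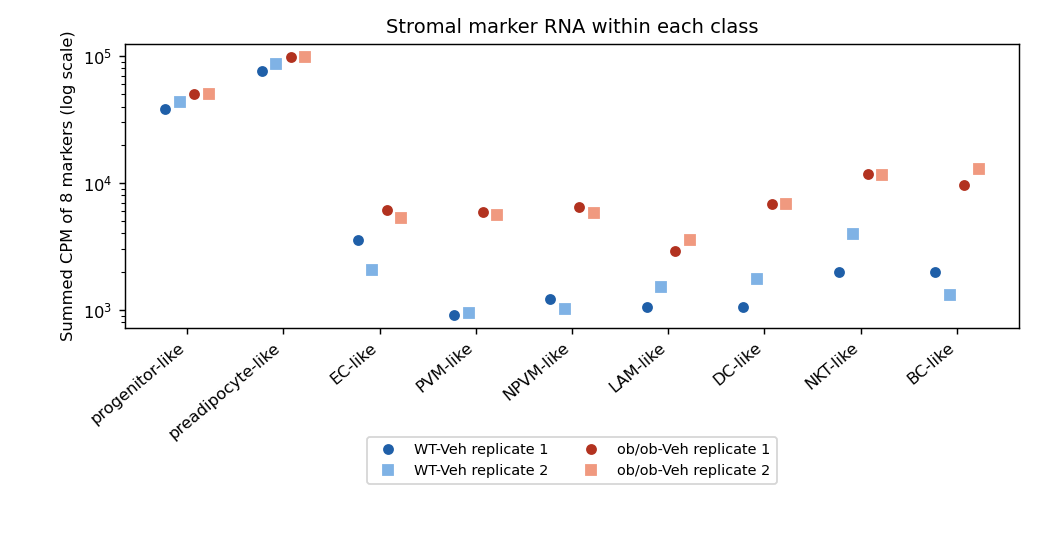
Summed CPM of 8 stromal marker genes (Pdgfra, Dcn, Lum, Col1a1, Col1a2, Col3a1, Gsn and Mfap5) within each class, on a log axis, with 1 point per library. In every plotted class both ob/ob-Veh libraries (red) lay above both WT-Veh libraries (blue), for example at 5915 and 5609 against 914.3 and 939.1 CPM in PVM-like cells.

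Among other genes with large rises in PVM-like cells, some were more abundant in the stromal cells of the same libraries. In the progenitor-like cells of the ob/ob-Veh libraries Ptgs2 was at 1537 and 1380 CPM, Csf1 at 392 and 424 CPM and Sult1e1 at 127 and 114 CPM, above their levels in PVM-like cells, while Dmpk was at 49.5 and 42.5 CPM, above its PVM-like level in replicate 1 and below it in replicate 2, and Slfn4 was at 0.593 and 0.114 CPM, below it in both. The part of stromal RNA in these rises was not tested. Dmpk, a muscle-enriched kinase gene, had 0 and 8 UMIs in WT-Veh and 232 and 370 in ob/ob-Veh, and was at 43.4 and 86.2 CPM there (adjusted p = 0.00248). Slfn4 (chromosome 11, 83175186 to 83190216), an interferon-inducible gene of myeloid cells, was at 0.588 and 0.445 CPM in WT-Veh and 50.5 and 12.3 CPM in ob/ob-Veh (change 5.84 ± 0.82, adjusted p = 0.00883). Sult1e1, the oestrogen sulfotransferase gene, had 1 UMI in WT-Veh and 190 in ob/ob-Veh, a ratio of 333 (59.0 to 13220). Csf1, the growth factor of macrophages, was at 4.41 and 3.85 CPM in WT-Veh and 25.8 and 26.3 CPM in ob/ob-Veh (adjusted p = 0.00376), and Ptgs2, the inducible cyclooxygenase gene, at 6.76 and 5.78 and 64.1 and 48.5 CPM (adjusted p = 0.00231).

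Among genes lower in PVM-like cells, Rnase2a (chromosome 14, 51255262 to 51256112), a secreted ribonuclease of a family with near-identical copies, fell the most. It was at 149 and 178 CPM in WT-Veh and at 0.561 and 1.17 CPM in ob/ob-Veh (change -7.76 ± 1.52, adjusted p = 0.0308). Acp5 (chromosome 9, 22126727 to 22135711), the acid phosphatase of osteoclasts and activated macrophages, was at 64.0 and 68.7 and 6.92 and 5.82 CPM (change -3.54 ± 0.32, adjusted p = 0.00191). Of 35 lysosome and lipid handling genes, 7 were called lower and 0 higher, with a median of -0.35, and none was called without ob/ob-Veh replicate 1 or 2. Trem2 was at 219 and 351 CPM in WT-Veh and 60.4 and 19.8 CPM in ob/ob-Veh (change -2.97 ± 0.57, adjusted p = 0.028). Lgals3 was at 606 and 813 and 174 and 137 CPM (change -2.35 ± 0.35, adjusted p = 0.0112). Trem2 and Fabp5, both called lower here, are among the markers from which LAM-like cells were named. Those cells were a larger share of the WT-Veh macrophage-like cells, and the part of LAM or their RNA in the PVM-like sums was not tested. Pparg itself was low and fell from 11.2 and 9.56 CPM in WT-Veh to 2.80 and 4.66 CPM in ob/ob-Veh (adjusted p = 0.0411). Egr2, an immediate early gene, was at 194 and 172 and 17.8 and 59.6 CPM (adjusted p = 0.0317), whereas the heat shock gene Hspa1b rose from 120.5 and 165 to 456 and 417 CPM (adjusted p = 0.0327). Both respond to tissue digestion. Of the 29 genes of that response, 1 was called higher and 3 lower, with a median of -0.48, beside 3.6% and 1.98% of all genes. Without ob/ob-Veh replicate 1 none of them was called, and without ob/ob-Veh replicate 2 only Egr2.

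**Figure D4:**
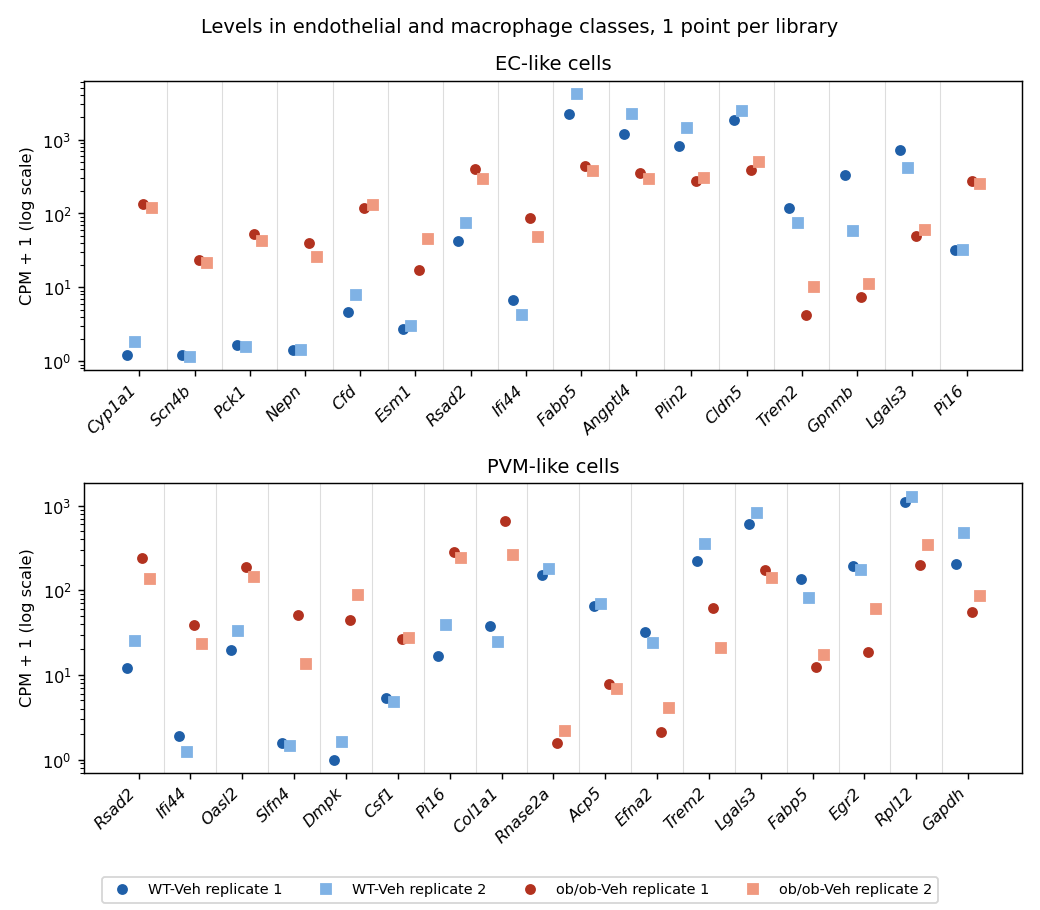
CPM + 1 on a log axis for named genes of EC-like (top) and PVM-like cells (bottom), with 1 point per library. Cyp1a1 in EC-like cells and Rsad2 in both classes were higher in both ob/ob-Veh libraries, and Fabp5, Trem2 and Lgals3 were lower in both classes.

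In PVM-like cells 30 of the 82 ribosomal protein genes tested were called lower and 0 higher, with a median of -1.58, and 1 had a change above 0. They made up 91270 and 136000 CPM of the WT-Veh PVM-like cells and 39550 and 56740 CPM of the ob/ob-Veh PVM-like cells, so the groups did not overlap. Rpl12, a protein of the large subunit, was at 1090 and 1279 CPM in WT-Veh and 196 and 344 CPM in ob/ob-Veh (change -2.31 ± 0.38, adjusted p = 0.016). Without ob/ob-Veh replicate 1 or 2 no member was called, without WT-Veh replicate 1 or 2 the number was 66 and 4, and by library size alone it was 17. Signs of RNA quality moved with them, the median mitochondrial share per PVM-like cell being 8.22% and 3.69% in WT-Veh and 11.1% and 9.82% in ob/ob-Veh and the median depth 3184 and 4677 UMIs in WT-Veh and 1687 and 1644 UMIs in ob/ob-Veh, and their part was not tested. Ribosomal protein genes have many processed copies in the genome, and the split of reads among them is uncertain.

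In the other classes edgeR's test called no ribosomal protein gene, and the medians were -0.80 in progenitor-like, -0.81 in preadipocyte-like, -1.35 in EC-like, -2.94 in DC-like and -2.27 in NKT-like cells. The summed level in progenitor-like cells was 123700 and 203300 CPM in WT-Veh and 100500 and 108000 CPM in ob/ob-Veh. In preadipocyte-like cells it was 95990 and 138300 CPM in WT-Veh and 66440 and 74210 CPM in ob/ob-Veh. Every one of these classes had both ob/ob-Veh libraries below both WT-Veh libraries, but the distance to WT-Veh replicate 1 was small in progenitor-like cells. At an unadjusted p below 0.05 the number was 35, 45, 71, 79 and 74 in progenitor-like, preadipocyte-like, EC-like, DC-like and NKT-like cells, DESeq2 called 10, 30, 60, 79 and 72 lower there and 72 in PVM-like cells, and library size alone called 27 in DC-like cells. Depth moved with these sums, the median UMIs per cell being lower in both ob/ob-Veh libraries in each of these classes other than EC-like cells, for example 2242 and 7491 in WT-Veh and 1613 and 1649 in ob/ob-Veh DC-like cells. The median mitochondrial share was higher in both ob/ob-Veh libraries in DC-like cells (11.7% and 2.51% in WT-Veh, 14.0% and 13.8% in ob/ob-Veh) and preadipocyte-like cells (5.99% and 3.096%, 8.11% and 8.16%) and overlapped in the others, and the part of either was not tested. The nuclear genes of the respiratory chain moved in the same direction, with 14 of 77 called lower in PVM-like cells (median -1.05; 5 by library size alone and 0 without ob/ob-Veh replicate 1 or 2), 1 of 77 in EC-like cells (median -0.93) and 0 in the other classes by edgeR's test (medians from -1.90 to -0.57). DESeq2 called 53 lower in PVM-like, 19 in EC-like, 1 in progenitor-like, 27 in preadipocyte-like, 34 in DC-like and 24 in NKT-like cells, and the numbers at an unadjusted p below 0.05 in the last 4 were 31, 52, 59 and 54. The 13 protein genes of the mitochondrial genome had no call in any class by edgeR's test or DESeq2, none at an unadjusted p below 0.05 in edgeR's test, and medians from 0.06 to 0.71. Gapdh, the glycolytic enzyme gene, was at 202 and 472 CPM in WT-Veh and 55.0 and 84.8 CPM in ob/ob-Veh PVM-like cells (adjusted p = 0.0341). Of 25 hypoxia and glycolysis genes tested in PVM-like cells, 1 was called higher and 1 lower, with a median of -0.285. Of all genes tested there, 3.6% were called higher and 1.98% lower.

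Scaling by library size alone, in place of TMM normalization, moved the median of all genes from 0.02 to 0.14 in progenitor-like, -0.10 to 0.18 in EC-like, 0.01 to 0.18 in PVM-like, -0.01 to 0.46 in DC-like and -0.02 to 0.29 in NKT-like cells. Under it the numbers called higher and lower were 84 and 43 in progenitor-like, 38 and 39 in preadipocyte-like, 187 and 24 in EC-like, and 526 and 132 in PVM-like cells. The medians of ribosomal protein, respiratory chain, interferon-stimulated and matrix genes kept their sign in every class under both scalings, whereas those of PPARγ genes in EC-like (0.06) and DC-like cells (0.23) and of lysosome genes in progenitor-like (0.11) and DC-like cells (0.14) turned from negative to positive, while all 4 of these medians lay below the median of all genes under both scalings.

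**Figure D5:**
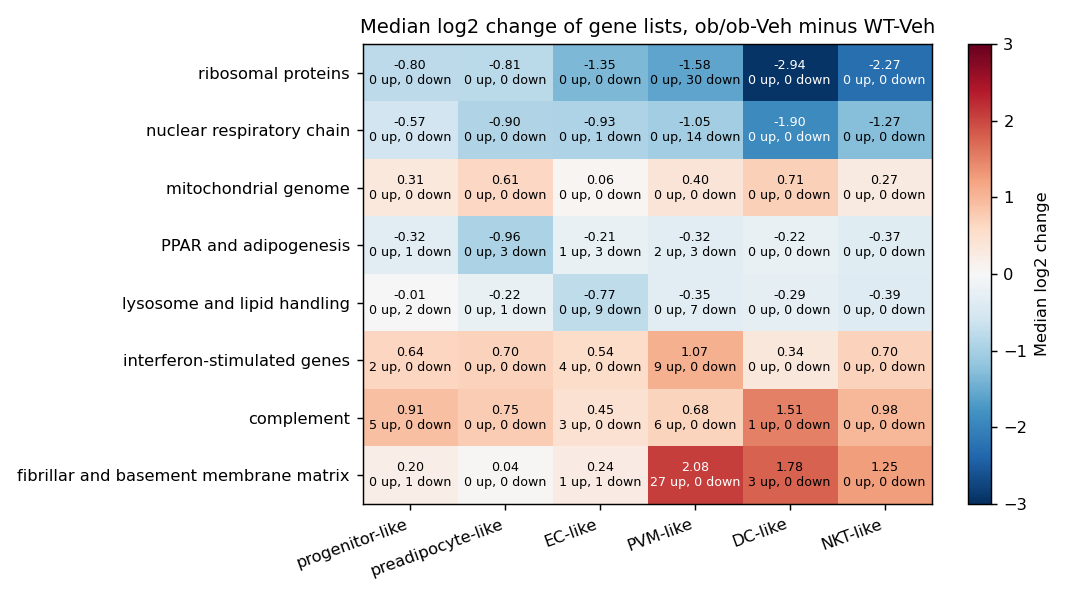
Median log2 change (ob/ob-Veh minus WT-Veh) of the tested members of 8 gene lists in 6 classes, as colour and number, with the numbers of members called higher (up) and lower (down) beneath. Ribosomal protein and nuclear respiratory chain genes had negative medians in all 6 classes and calls mostly in PVM-like cells, and matrix genes were highest in PVM-like cells, with 27 called higher.

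DC-like cells, a cluster named from dendritic cell markers and led by Irf8, Plbd1 and Wdfy4, were few, with 76 and 147 cells in WT-Veh and 66 and 53 in ob/ob-Veh. At a clustering resolution of 2 they were 22 and 146 in WT-Veh and 12 and 8 in ob/ob-Veh. With cells assigned singly they were 155 and 140 in WT-Veh and 4 and 8 in ob/ob-Veh. Most ob/ob-Veh cells compared here thus lost the name in those settings, and whether they are dendritic cells was not tested. Of 6995 genes, 16 were called higher (0.229%) and 2 lower (0.0286%). Most of the rises were in stromal genes. Dpt (dermatopontin) was at 24.6 and 19.2 CPM in WT-Veh and 367 and 314 CPM in ob/ob-Veh (adjusted p = 0.0345), and Serpinh1, a collagen chaperone, at 24.6 and 5.23 and 250.3 and 152 CPM (adjusted p = 0.0436). The 8 stromal markers summed to 1054 and 1760 CPM in WT-Veh and 6817 and 6860 CPM in ob/ob-Veh, and 11 of the 16 genes (68.8%) were at least 2-fold higher in progenitor-like cells, compared with 10.2% of genes tested. The anti-apoptotic gene Bcl2a1b, which has near-identical copies, had 236 UMIs in WT-Veh and 1 in ob/ob-Veh, a ratio of 38.2 (6.79 to 1515). The chemokine gene Ccl5 had 95 and 0 and was at least 3.03-fold lower. No gene was called when 1 of the ob/ob-Veh libraries was left out or once cells with a shared barcode had been removed, 1536 and 100 were called without WT-Veh replicate 1 or 2, 289 and 304 without ob/ob-Rosi replicate 1 or 2, and library size alone gave 77 higher and 40 lower.

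NKT-like cells gave no call in either direction (0.0% each of 10889 genes) by edgeR's test, with 1465 genes at an unadjusted p below 0.05, and DESeq2 called 317 on the same sums. Their T and NK markers summed to 2647 and 3854 CPM in WT-Veh and lower, at 1202 and 2260 CPM, in ob/ob-Veh, and the 8 stromal markers to 1978 and 3994 CPM in WT-Veh and 11860 and 11550 CPM in ob/ob-Veh. The ob/ob-Veh sums held 169670 and 257935 UMIs. Leaving out WT-Veh replicate 1 or 2 gave 1284 and 332 calls, leaving out ob/ob-Rosi replicate 1 or 2 gave 127 and 55, and library size alone 43 higher and 1 lower.

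A small number of genes were called in several classes, whose values come from the same 4 mice and are given side by side. Il1r2 was called higher in 4 of the 6 classes. In EC-like cells it was at 3.19 and 0.268 CPM in WT-Veh and 51.3 and 60.7 CPM in ob/ob-Veh (adjusted p = 0.0323) and in PVM-like cells at 3.53 and 1.04 and 63.2 and 57.1 CPM (adjusted p = 0.00248), below the levels of the stromal cells given above. Fabp5 was called lower in 4, and in PVM-like cells it was at 136 and 79.2 CPM in WT-Veh and 11.4 and 16.3 CPM in ob/ob-Veh (change -3.12 ± 0.42, adjusted p = 0.00762). Trem2, Cldn5 and Ccl5, genes of LAM, endothelial cells and cytotoxic lymphocytes, were each called lower in 3 classes, of which 1 was progenitor-like cells. The 8 EC markers summed there to 90.7 and 61.3 CPM in WT-Veh and 10.4 and 40.2 CPM in ob/ob-Veh, and the 10 markers of NKT-like cells to 157.8 and 12.7 CPM in WT-Veh and 5.99 and 16.2 CPM in ob/ob-Veh. The part of RNA from these other cell types, in these genes and in Fabp5, was not tested. Predicted genes (Gm and Rik symbols) were left out of the counts of shared genes. Of the rest, 12 were called higher in 3 classes and 63 in 2, and 3 were called lower in 3 classes and 23 in 2.

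In the sums over all kept cells of a library, 460 of 15779 genes were called higher (2.92%) and 430 lower (2.73%). Fewer cells of a type and less RNA per cell cannot be told apart in these sums. Fabp5 was at 764 and 828 CPM in WT-Veh and 15.9 and 48.0 CPM in ob/ob-Veh (change -4.73 ± 0.62, adjusted p = 0.027) and Trem2 at 199 and 241 and 22.3 and 8.73 CPM (change -3.84 ± 0.52, adjusted p = 0.0273). The proliferation list had 6 of 24 genes called lower and 0 higher (median -1.35), with Stmn1, a tubulin-binding protein gene of dividing cells, at 62.6 and 81.1 CPM in WT-Veh and 14.6 and 13.8 CPM in ob/ob-Veh (adjusted p = 0.0227). Irs1, an adaptor of the insulin receptor, was at 4.09 and 6.44 and 28.6 and 33.2 CPM (adjusted p = 0.027), and Il6 at 14.7 and 31.1 and 112 and 102 CPM (adjusted p = 0.0403). Il1b fell from 99.1 and 175 CPM in WT-Veh to 35.5 and 32.3 CPM in ob/ob-Veh (adjusted p = 0.0346). No gene was called when 1 of the ob/ob-Veh libraries was left out, 37 when 1 of the ob/ob-Rosi libraries was, and 1690 and 2703 without WT-Veh replicate 1 or 2.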

How the data were processed

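Single-cell RNA-seq libraries of the iWAT SVF were analysed, 2 each labelled WT-Veh and ob/ob-Veh. According to the submitters' processing notes, the authors used bcl2fastq 2.19.1.403 for demultiplexing and Cell Ranger 3.0.2 with mm10 for alignment. The deposited values are raw UMI counts for 31053 genes in each barcode, neither normalized nor pooled. In iWAT no deposited barcode exceeds 22000 UMIs or reaches 25% mitochondrial UMIs. No removal of free RNA or doublets is given in the sources used here. Gene symbols gave positions for 30942 genes.

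Kept cells of the 6 iWAT libraries were clustered together without integration (scanpy 1.11.5; 2000 variable genes, 25 principal components, 20 neighbours, Leiden resolution 1) and clusters named from marker lists, with at least 3 markers 2-fold raised and present in 20% of cells. Details of that rule were adjusted after clusters had been seen and before groups were compared. UMIs were summed per library and class (at least 20 cells) and fitted with edgeR 4.0.16 (R 4.3.3; TMM, filterByExpr, quasi-likelihood test), with all 3 iWAT groups in 1 fit and 3 residual degrees of freedom. CPM are UMIs per 1000000 UMIs of the class. Numbers of cells were tested with the kept cells of the library as offset.

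Named genes were, per class, the 4 called in each direction with the largest change among those with both ob/ob-Veh libraries on 1 side of both WT-Veh libraries and at least 20 CPM in the higher group, the 5 per direction called in most classes, up to 4 called members of each of 24 lists (or 3 abundant ones where fewer than 2 were called), checks of the labels and markers of the study. The members and lists were chosen with earlier results of these data known. Isg15 and Stat2 in PVM-like cells, and Ddx58, Mx1 and Xaf1, were named after their values were seen. Alternatives were DESeq2 1.42.0, library size alone, no filter on low counts, the 4 vehicle libraries alone, a replicate block, cells thinned to 700 UMIs, doublets removed (highest Scrublet scores), cells assigned singly, other clustering resolutions, and each library left out, where the spread of the remaining library of that group is taken from the other groups. The test was tested on simulated data. Some called genes are not reported here by name.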

Additional observations from a re-analysis of the deposited data

How the results depend on the processing

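Numbers of genes called depended on the processing in every class. Directions of the named genes seldom turned, but many were named for a call or for groups that lay apart. Leaving out 1 library could hardly turn the sign of such genes. Among the named genes in their classes, the call was lost in 21 with doublets removed and the outcome, called or not, stayed the same in 51. These numbers were 18 and 65 in the 4 vehicle libraries, 16 and 50 with thinned cells and 14 and 55 with cells assigned singly. Most named genes lost their call when either ob/ob-Veh library was left out, which leaves 1 mouse in that group. In progenitor-like cells (132 calls) DESeq2 gave 339, no filter on low counts 913, the replicate block 290 and thinned cells 355. In preadipocyte-like cells (27) the values were 466, 989, 509 and 104, with 77 by library size alone, 61 in the 4 vehicle libraries, 15 without doublets, 0 with cells assigned singly and 64 without shared barcodes, an alternative chosen after seeing the data. In EC-like cells (117) they were 752, 1434, 890 and 10, with 211 by library size alone, 76 in the 4 vehicle libraries and 13 without doublets. In PVM-like cells (679) they were 1324, 2117 and 1573 for the first 3, with 446 for cells assigned singly. In DC-like cells (18) they were 321, 520, 216 and 29, with 117, 72 and 0 for library size, doublets removed and shared barcodes removed. In NKT-like cells (0) they were 317, 568, 327 and 37, with 44 by library size, 34 in the vehicle libraries and 61 without doublets. In the whole-library sums (890) DESeq2 gave 3316, no filter 2658 and the 4 vehicle libraries 32. Cells assigned singly gave no value for DC-like and NKT-like cells, since under 20 such cells were left in both ob/ob-Veh libraries. The cause of these shifts was not tested.

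Leaving out 1 library at a time gave 0 to 973 calls in progenitor-like, 0 to 991 in preadipocyte-like, 0 to 1503 in EC-like, 63 to 1956 in PVM-like, 0 to 1536 in DC-like and 0 to 1284 in NKT-like cells, and 0 to 2703 in the whole-library sums. For numbers of cells the log2 change ranged from 0.88 to 5.59 for progenitor-like, 0.14 to 3.50 for preadipocyte-like, -3.04 to -0.50 for EC-like, 0.17 to 2.65 for PVM-like, 0.44 to 3.16 for NPVM-like, -4.00 to -2.215 for LAM-like, -4.51 to -1.19 for BC-like, -2.95 to -2.29 for NKT-like and -0.855 to 0.89 for DC-like cells, where the sign turned without WT-Veh replicate 2 (0.89).

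By edgeR's quasi-likelihood test, numbers of LAM-like and BC-like cells passed with named cells as the total (-3.45 and -4.45) and at resolution 0.5 (-3.29 and -3.58). They also passed at resolution 2 (-3.87 and -3.60) and with cells assigned singly (-5.57 and -5.52). NKT-like cells passed with named cells as the total (-3.16) and with cells assigned singly (-8.77, on 0 and 3 ob/ob-Veh cells). None of these classes passed with doublets removed (adjusted p = 0.0995 for each) or with the replicate block (0.3996 for each). NPVM-like cells turned from 1.24 to -2.36 with cells assigned singly. In that setting the change was 0.04 for preadipocyte-like and 0.016 for PVM-like cells, in place of 1.01 and 0.93. DC-like cells moved from -0.23 to -2.52 at resolution 2 and to -3.79 with cells assigned singly.

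Of the named genes, those whose sign turned were not called in either setting. Cd36 in EC-like cells was 0.062 by library size alone. Leaving out 1 library gave -0.043 (without ob/ob-Veh replicate 1) to 0.988 for Isg15 in PVM-like cells, and -0.03 without WT-Veh replicate 1. Icam1 in preadipocyte-like cells was 0.30 with thinned cells, 0.67 with cells assigned singly, 0.05 without WT-Veh replicate 1, and -0.367 to 0.15 over all libraries left out, the highest without ob/ob-Veh replicate 1. Dpp4 in progenitor-like cells ranged from -0.393 to 0.20 (without WT-Veh replicate 1), and Pi16 in progenitor-like cells from -0.456 to 0.23 (without WT-Veh replicate 2), and was 0.041 with thinned cells.

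At resolution 0.5 no cluster was named DC-like. The labels do not say that a replicate number marks a shared animal or batch. Deviations of same-numbered WT-Veh and ob/ob-Veh libraries correlated across genes at r from -0.0327 to 0.207 in the 6 classes and at -0.068 in whole libraries. Those of WT-Veh and ob/ob-Rosi correlated at 0.382 to 0.809 in the classes, and for the 2 obese groups r was between -0.0275 and 0.208 (0.681 and -0.193 in whole libraries). With 2 libraries per group and no label that pairs them, the replicate block was not the reported fit. It called more genes in each class, as given above, and 799 in place of 890 in the whole-library sums. The ob/ob-Veh sums of DC-like and NKT-like cells held 98693 to 257935 UMIs, the smallest of the 6 classes, and the part of depth in their numbers of calls was not tested.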

Other observations

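Some gene groups were described in the sums over all kept cells of a library only, where fewer cells of a type and less RNA per cell cannot be told apart. Of the hypoxia and glycolysis genes, 3 of 26 were called higher and 1 lower by edgeR's quasi-likelihood test (Benjamini-Hochberg), beside 2.92% and 2.73% of all genes. The erythrocyte-type glucose transporter gene Slc2a1 was at 21.8 and 16.1 CPM in WT-Veh and 3.54 and 3.57 CPM in ob/ob-Veh (adjusted p = 0.027), whereas the hexokinase gene Hk2 was at 40.0 and 23.8 CPM in WT-Veh and 143 and 125 CPM in ob/ob-Veh (adjusted p = 0.0388). Of 24 chemokine genes, 1 was called higher and 2 lower. The neutrophil attractant Cxcl1 was at 132 and 196 CPM in WT-Veh and 543 and 449 CPM in ob/ob-Veh (adjusted p = 0.0462), and Ccl17, a chemokine of dendritic cells, at 14.8 and 5.54 CPM in WT-Veh and 0.748 and 0.357 CPM in ob/ob-Veh (adjusted p = 0.0483). Among 15 genes of leptin receptor and JAK-STAT signalling, 0 were called higher and 2 lower, Lep and the STAT5 target Cish (12.5 and 10.4 CPM in WT-Veh, 3.50 and 2.71 CPM in ob/ob-Veh, adjusted p = 0.0388). None of these genes was called when 1 of the ob/ob-Veh or ob/ob-Rosi libraries was left out, and without WT-Veh replicate 1 Cxcl1 was not called.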
